A study of Mus musculus with 4 samples.

Results

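Naive CD4 T cells are kept in a resting, recirculating state by a small set of transcription factors and the genes that these factors control. The 9 genes described here are of that kind. They are Foxo1, Klf2 and S1pr1, which act in a line from quiescence to exit from lymphoid tissue, Tcf7 and Lef1, which encode the T cell factors TCF1 and LEF1, Satb1 and Bcl11b, which encode nuclear proteins of T cell development, and Dapl1 and Igfbp4, which are abundant in naive T cells. They were chosen by name as genes of naive and quiescent T cells, with the differences between these same 4 arrays already known, so their differences between arrays are given as a description. They are 9 of 18749 named genes, and 14 of 41173 probes read them. Foxo1, Klf2, Tcf7, Igfbp4 and Bcl11b had 2 probes each, and the other 4 genes had 1.

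The transcripts were read with 1 Agilent array of the one-colour type per condition, 4 in all. The mice were C57BL/6J and female by their labels, though the methods name both sexes for cultured cells, and naive CD4 T cells came from the spleen of WT mice or of mice labelled Bach2flox/flox CD4-Cre TG, called KO here after the sample names, in which Cre recombinase is driven by the Cd4 promoter and so acts in the T cell lineage as a whole. Bach2 is a transcriptional repressor of the basic leucine zipper family. All cells were stimulated for 2 days with anti-TCR-β mAb at 3 µg/ml and anti-CD28 mAb at 1 µg/ml and cultured for 3 more days with IL-2 at 2.5 ng/ml, and were then taken as they were or after 4 h of re-stimulation with immobilized anti-TCR-β mAb without added IL-2. Although the labels call the cells naive, all 4 arrays thus hold cells that had been activated and cultured for 5 days, and no array of uncultured naive cells was part of the comparison. The IL-2 dose given above is that of the labels, and the paper's methods state a higher one for its IL-2 conditions. No condition was replicated, so that no test could be run, and nothing says how many mice were behind an array.

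A T cell that has not met antigen is quiescent. In that state Foxo1 stays in the nucleus and drives Klf2, Klf2 drives S1pr1, and the receptor encoded by S1pr1 lets the cell follow sphingosine 1-phosphate out of lymph nodes and spleen. TCF1 and LEF1 bind the same DNA element and are high in naive and central memory T cells, while antigen receptor signals through PI3K and Akt send Foxo1 out of the nucleus, and Klf2, S1pr1, Tcf7 and Lef1 are then lowered as effector cells form. These are general features of T cells, and none of them was measured here beyond the level of mRNA.

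Signals below are the scanner's background-corrected intensities in arbitrary units. A difference is the log2 value of one array minus that of another, each set relative to the 75th percentile of the array. A gene with several probes was counted by its brightest one, and a difference of at least 2-fold, which is 1 on the log2 scale, is used as a rule of size. On each array 53.6% to 54.0% of the probes passed the scanner's test of being well above background, and 10810 genes passed it on all 4. The SD between probes of one gene had a median over 3852 genes of 0.088 and 0.11 for the differences between genotype labels before and after re-stimulation, and of 0.15 and 0.14 for the responses of WT and KO arrays. The error that the scanner software gives to a member's spots came to between 0.20 and 0.24 for a difference, leaving Dapl1 aside. Neither covers the spread between mice or cultures.

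The labels could not be checked firmly. The Bach2 probe read 2932 in WT and 2633 in KO cells without re-stimulation and 3310 and 3080 with it, and its position relative to the deleted part is not known here. Of 4 genes of the Y chromosome, 3 (Ddx3y, Eif2s3y and Kdm5d) were well above background on the KO arrays and 0 on the WT arrays, with Eif2s3y at 3.29 on WT and 1185 on KO before re-stimulation, against 3.18 and 951 afterwards, although the labels give all mice as female. Xist, transcribed from the inactive X chromosome, gave 9524 on WT and 4623 on KO before re-stimulation and 5221 and 2585 after it. It was thus well above background on all 4 arrays, and whether the KO arrays hold RNA of both sexes was not tested. Sex of the source mice and genotype label therefore cannot be told apart. Of 10 T cell identity genes, 0 differed by 2-fold in any comparison, and Cd3e, a subunit of the antigen receptor complex, differed by -0.14 and -0.10 between labels. Of 9 markers of mast cells and basophils, 5 could be measured and 4 were at least 2-fold higher on the KO arrays in both states, beside 5.27% of all genes before and 5.17% after re-stimulation. Their summed signal was 73.6 on WT and 1058 on KO before re-stimulation and 60.6 and 896 once re-stimulated. Mcpt8 (8.48 and 309 before re-stimulation), Cpa3, Prss34 and Fcer1a were the 4, while no array gave a signal well above background for Ms4a2, Mcpt4 or Tpsb2. By the brightest probe, Prss34 alone was well above background on a WT array, and only before re-stimulation. The other differences are bounds set by dim WT values, such as the 8.48 of Mcpt8, and could only come out higher on KO. The part of these cells and of sex in the differences below was not tested. Since RNA of whole cultures was read, fewer cells with a transcript and less of it per cell cannot be told apart.

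Promoter windows of the members were read for short sequence motifs. The windows hold the 250 bases before each annotated start in RefSeq on GRCm38.p6, and 8 of the 9 genes had 16 windows between them. S1pr1 had no window, so the counts of matches below do not cover it. The windows of Dapl1 and Klf2 are shown because Dapl1 differed most between genotype labels and because Klf2 stands next to Foxo1 and S1pr1 in the pathway. The plus strand is written 5′ to 3′ up to the base before the start. Capitals mark a match to the FOXO element, searched as TGTTTAC on both strands.

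Dapl1, chr2:59484403-59484652, plus strand: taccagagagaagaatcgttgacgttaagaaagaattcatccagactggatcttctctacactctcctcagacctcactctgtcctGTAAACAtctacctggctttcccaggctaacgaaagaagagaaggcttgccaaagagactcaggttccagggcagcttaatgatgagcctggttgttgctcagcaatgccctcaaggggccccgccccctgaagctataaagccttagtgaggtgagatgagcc

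Klf2, chr8:72318812-72319061, plus strand: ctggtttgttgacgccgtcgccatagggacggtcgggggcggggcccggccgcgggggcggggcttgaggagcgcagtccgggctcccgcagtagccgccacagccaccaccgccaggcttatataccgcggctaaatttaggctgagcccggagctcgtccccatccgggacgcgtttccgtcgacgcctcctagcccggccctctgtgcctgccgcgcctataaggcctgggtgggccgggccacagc

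The capitals in the Dapl1 window begin 164 bases before the start and read the element on the minus strand. That was the single FOXO match among the 16 member windows, and 3.17% of 32851 windows of all genes hold one. Klf2 held none of the 4 motifs searched. The T cell factor element, searched as CTTTGA on both strands, stood in 1 window of Lef1 and 1 window of Bcl11b, against 13.8% of all windows. Both windows precede an annotated start that lies inside the gene. The matches lay 180 and 120 bases before that start in Lef1 and 89 bases before it in Bcl11b. CCACACCC, a core bound by KLF proteins, was searched on both strands. It stood on the strand opposite to the gene in 1 window each of Tcf7 and Igfbp4, against 3.20% of all windows. These matches lay 69 and 48 bases before an annotated start that is again inside the gene. Bach2 binds with small Maf proteins to elements that contain an AP-1-like core, and this core, searched as TGANTCA on both strands, was in 0 of the 16 windows and in 6.75% of all windows. These matches are letters in a short window and do not show binding.

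Foxo1, the Forkhead factor at the head of this pathway (chromosome 3, 52268337 to 52350109), stayed within 2-fold in every comparison by both of its probes. Probe 1 gave signals of 6739 on WT and 5289 on KO before re-stimulation, then 3451 on WT and 5153 on KO with it. Probe 2 gave 3991 and 3331 before re-stimulation, against 2364 and 3503 afterwards. Both probes were thus a little lower on the KO array before re-stimulation, at -0.34 and -0.25, and a little higher after it, at 0.40 and 0.39. The responses had opposite signs too, at -0.49 and -0.28 on WT arrays and 0.26 and 0.37 on KO arrays, although scaling to Cd3e turned the WT value of probe 2 to 0.021 and scaling to the median turned the KO value of probe 1 to -0.0027. The differences between genotype labels were larger than the spread between probes, and the difference after re-stimulation exceeded that before it by 0.75 and 0.65, with 96.3% and 94.8% of 10810 genes at or below these values.

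Klf2 encodes a zinc finger factor that holds T cells in quiescence (chromosome 8, 72319062 to 72321654). Its 2 probes, both matched to transcript NM_008452, disagreed. Probe 1 gave 36756 on WT and 39587 on KO before re-stimulation and 30785 and 34768 once re-stimulated, which are nearly level, with differences of 0.11 and 0.00 between genotype labels, the second of which was -0.027 when arrays were scaled to their median. Probe 2 gave 20130 and 8937 before re-stimulation, then 6345 and 768 with it. On this probe Klf2 was 2.24-fold lower on the KO array before re-stimulation and 9.33-fold lower after it, and 8 of 12341 genes had a difference as low after re-stimulation. Its log2 differences were -1.16 and -3.22. The gap between the 2 probes, 3.22 after re-stimulation, was reached by 1 of 3852 genes with several probes, which is Klf2 itself. Before re-stimulation the gap was 1.28 and was reached by 26 genes. No spot was saturated on any array, and the files do not say where in the transcript each probe lies. Klf2 therefore has no settled difference here, and because its brighter probe is the level one, it is not among the lowered members in the counts below.

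S1pr1, the receptor for sphingosine 1-phosphate that Klf2 drives (chromosome 3, 115710433 to 115715055), gave signals of 3856 on WT and 2166 on KO before re-stimulation. After re-stimulation they were 499.6 on WT and 72.1 on KO. All 4 signals were well above background, and S1pr1 had the widest range of the members measured on every array, at 5.43 on the log2 scale. It was 1.77-fold lower on the KO array before re-stimulation, with a difference of -0.83 that falls short of the 2-fold rule, and 7.82-fold lower after it, with a difference of -2.97 that 13 of 12341 genes equalled or passed. The fall with re-stimulation was 5.53-fold on WT arrays and 24.4-fold on KO arrays. The latter, -4.61 on the log2 scale, was the largest fall of all 12283 genes measured in that comparison.

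Tcf7, which encodes TCF1 (chromosome 11, 52246527 to 52283383), was lower on the KO arrays by both of its probes in both states. Probe 1 gave 1560 on WT and 523 on KO before re-stimulation, against 735 and 209 afterwards. Probe 2 gave 334 and 113 before re-stimulation and 170.4 and 43.6 once re-stimulated. By probe 1 Tcf7 was 2.97-fold lower on KO before re-stimulation and 3.96-fold lower after it, and by probe 2 it was 2.95-fold and 4.41-fold lower. In log2 terms these are -1.57, -1.99, -1.56 and -2.14. The signal on the unstimulated KO array was below that of the re-stimulated WT array by both probes, so the order of the 4 arrays ran from unstimulated WT down to re-stimulated KO.

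Lef1, the partner of Tcf7 in the family (chromosome 3, 131110297 to 131224357), followed with smaller steps. Its signal was 5713 on WT and 2865 on KO before re-stimulation, then 1896 and 940.0 with it. The difference between genotype labels was -0.99 before re-stimulation, just outside the 2-fold rule (-1.05 and inside it when arrays were scaled to their median), and -1.19 after it, just inside. Lef1 was thus 1.99-fold lower on KO before and 2.28-fold lower after re-stimulation, and the 2 values differed by 0.20, which is within the error that the scanner software gives to a single difference.

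Dapl1, a gene named for its likeness to a death-associated protein and abundant in naive T cells (chromosome 2, 59484653 to 59505020), differed most. Its signal was 6231 on WT and 14.8 on KO before re-stimulation, against 2445 on WT and 8.93 on KO afterwards. On both KO arrays the probe was not well above background, so only bounds can be given. Dapl1 was at least 369-fold lower on the KO array before re-stimulation and at least 160.0-fold lower after it. These bounds of -8.53 and -7.32 were the lowest values of all 12105 and 12341 genes. On the WT arrays re-stimulation gave a log2 difference of -0.87, and no response can be given for the KO arrays.

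Igfbp4, a secreted protein that binds insulin-like growth factors (chromosome 11, 99040005 to 99052655), was lower on the KO arrays by both probes. Probe 1 gave 2213 on WT and 338 on KO before re-stimulation and 581 and 123 once re-stimulated. Probe 2 gave 1534 and 222 before re-stimulation, then 398 and 74.2 with it. Probe 1 was 6.52-fold lower on KO before re-stimulation and 5.34-fold lower after it, and probe 2 was 6.87-fold and 6.04-fold lower. The log2 differences were -2.71 and -2.42 for probe 1 and -2.78 and -2.60 for probe 2. For Igfbp4, unlike S1pr1, the gap between genotype labels was about as wide before re-stimulation as after it.

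Satb1 and Bcl11b, a chromatin organizer and a zinc finger factor needed for T cell commitment, stayed inside the 2-fold rule between genotype labels. Satb1 (chromosome 17, 51736187 to 51833290) gave 7255 on WT and 10506 on KO before re-stimulation, against 7219 and 7931 afterwards, differences of 0.54 and -0.04, the second of which became 0.06 when arrays were scaled to Cd3e. It was the only member with a higher value on the KO array before re-stimulation that exceeded the error of the spots. Bcl11b (chromosome 12, 107910403 to 108004145) was read by probes matched to different transcripts. Probe 1, for NM_021399, gave 10559 and 9296 before re-stimulation and 4787 and 4552 once re-stimulated, with differences of -0.18 and -0.25. Probe 2, for NM_001079883, gave 1381 and 984 before re-stimulation, then 459 and 279 with it, and differences of -0.48 and -0.89. Both probes were lower on the KO array in both states, and the probe of the second transcript was lower by more.

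**Figure D1:**
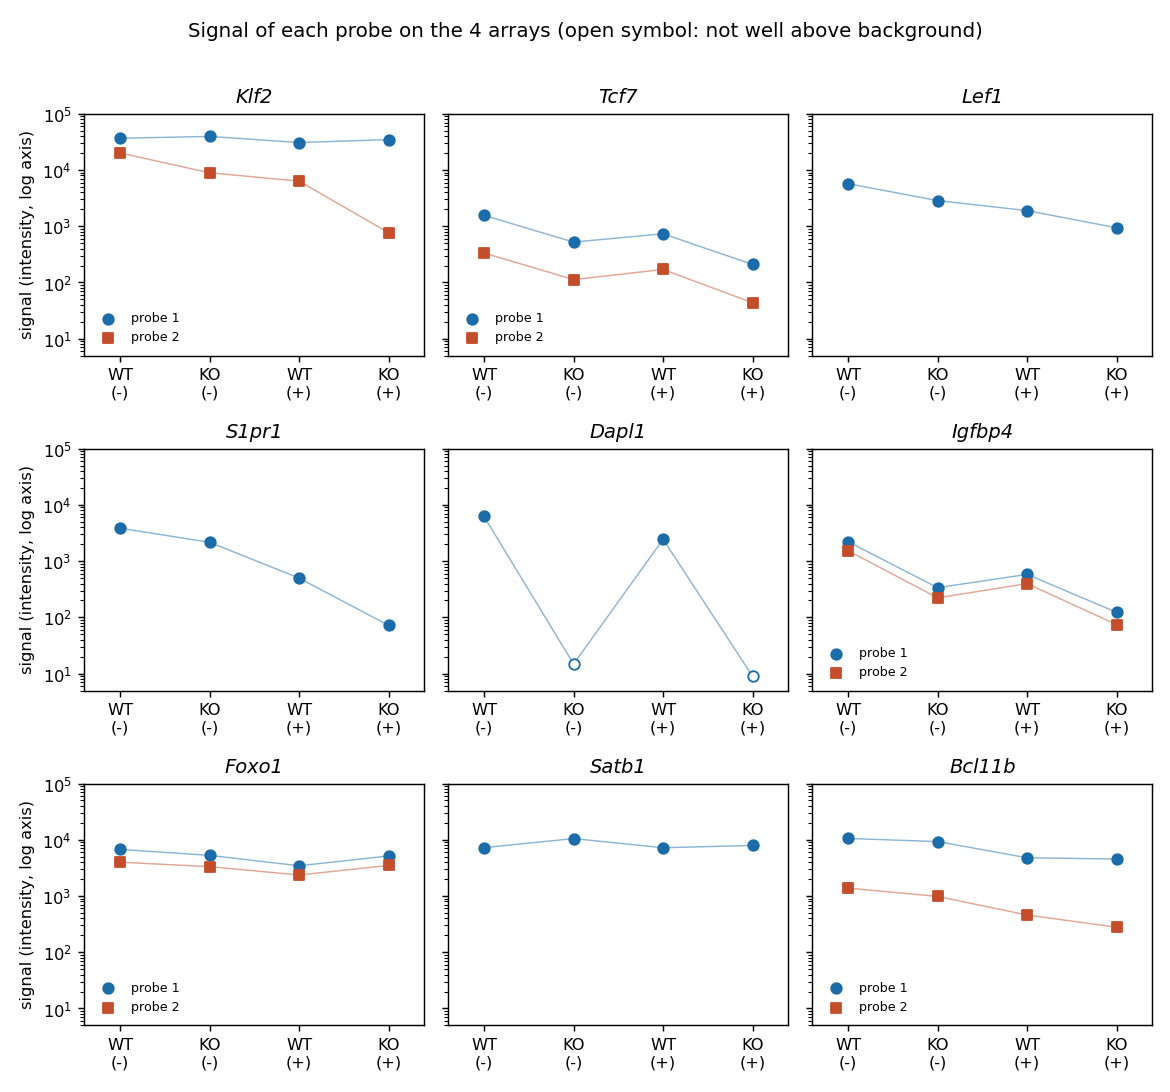
Signal of every probe of the 9 genes (vertical axis, scanner intensity, log scale) on the 4 arrays, WT and KO before (-) and after (+) re-stimulation. Each symbol is 1 array, thin lines only join the symbols of a probe, and open symbols are not well above background. Dapl1 drops from 6231 to 14.8 and from 2445 to 8.93 between WT and KO, S1pr1 falls to 72.1 on the re-stimulated KO array, and the 2 Klf2 probes part.

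Counted over the members, 3 of 9 were at least 2-fold lower on the KO array before re-stimulation (Tcf7, Dapl1 and Igfbp4) and 0 were higher. Over all genes 2.83% were at least 2-fold lower and 5.27% were higher in that comparison. After it 5 of 9 passed the rule downwards (Tcf7, Lef1, S1pr1, Dapl1 and Igfbp4) and 0 were higher, beside 3.86% and 5.17% of all genes. The 3 genes lowered before re-stimulation were lowered in both states, as were 1.04% of 11502 genes. The median difference of the members was -0.83 before and -1.19 after re-stimulation, beside medians of -0.0044 and 0.016 over all genes. These shares rest on values that were known when the members were chosen, and they are given for size only. With a 3-fold rule 2 members were lower before and 4 after re-stimulation, beside 1.05% and 1.38% of all genes. By probe rather than gene, 6 of 14 probes were at least 2-fold lower before and 8 of 14 after re-stimulation, with probe 2 of Klf2 among them in both states. The share over all probes was not counted, so these probe counts have no background beside them.

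**Figure D2:**
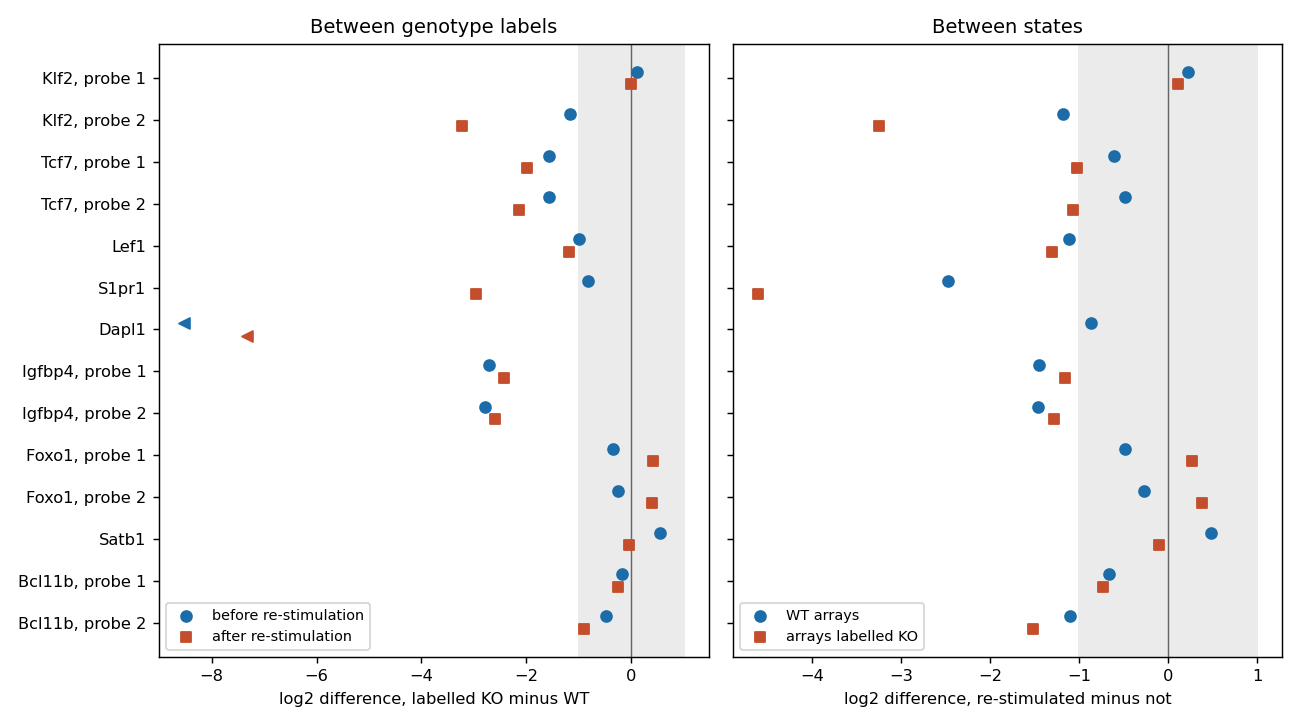
Log2 differences of every probe of the 9 genes (horizontal axes). The left panel shows KO minus WT before (circles) and after (squares) re-stimulation, and the right panel shows re-stimulated minus not for WT (circles) and KO (squares). The grey band is less than 2-fold, and left-pointing triangles are bounds. Tcf7, Dapl1 and Igfbp4 lie left of the band in both states, and S1pr1 (-0.83 and -2.97) and probe 2 of Klf2 (-1.16 and -3.22) move further left after re-stimulation.

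Several members were lower after re-stimulation on both pairs of arrays. On WT arrays 3 of 9 members passed the rule downwards (Lef1, S1pr1 and Igfbp4) and 0 were higher, where 13.7% of all genes were lower and 13.3% higher. On KO arrays 4 of 8 measured members were at least 2-fold lower (Tcf7, Lef1, S1pr1 and Igfbp4) and 0 were higher, where 13.1% of all genes were lower and 12.5% higher. The median response of the members was -0.66 on WT and -0.88 on KO arrays, and the median over all genes was -0.018 and 0.0024. With a 3-fold rule 1 member, S1pr1, was lower on each pair of arrays, beside 4.55% of all genes on WT and 4.54% on KO arrays. Lef1 fell by 1.11 on WT and 1.31 on KO arrays. Igfbp4 fell by 1.45 and 1.16 by probe 1 and by 1.47 and 1.28 by probe 2. Tcf7 fell by 0.61 and 1.02 by probe 1 and by 0.49 and 1.07 by probe 2, so it lies close to the 2-fold rule on KO arrays. Satb1 stayed inside the rule at 0.47 and -0.11, or 0.15 in place of -0.11 with scaling to Cd3e. The first probe of Bcl11b fell by 0.66 and 0.73 and the second by 1.11 and 1.52, so that the count for Bcl11b depends on the probe.

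The 2 responses were then set against each other. Each of them shares its arrays with the differences between genotype labels, so this is the same information seen another way. The response was at least 2-fold lower on KO than on WT arrays for 1 of the 8 members with values on all arrays, S1pr1, at -2.14, and 3% of 10810 genes passed that rule. It was at least 2-fold higher for 0 members and for 1.82% of genes. Among these genes, 33 had a value as low as S1pr1. Probe 2 of Klf2 came next at -2.06, a value that 37 genes reached, while probe 1 gave -0.11. Tcf7 followed at -0.42 and -0.58, Satb1 at -0.58 and Lef1 at -0.20. Igfbp4 went the other way, at 0.29 and 0.18, and Foxo1 had the highest values. The spread between probes of this quantity was 0.105.

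**Figure D3:**
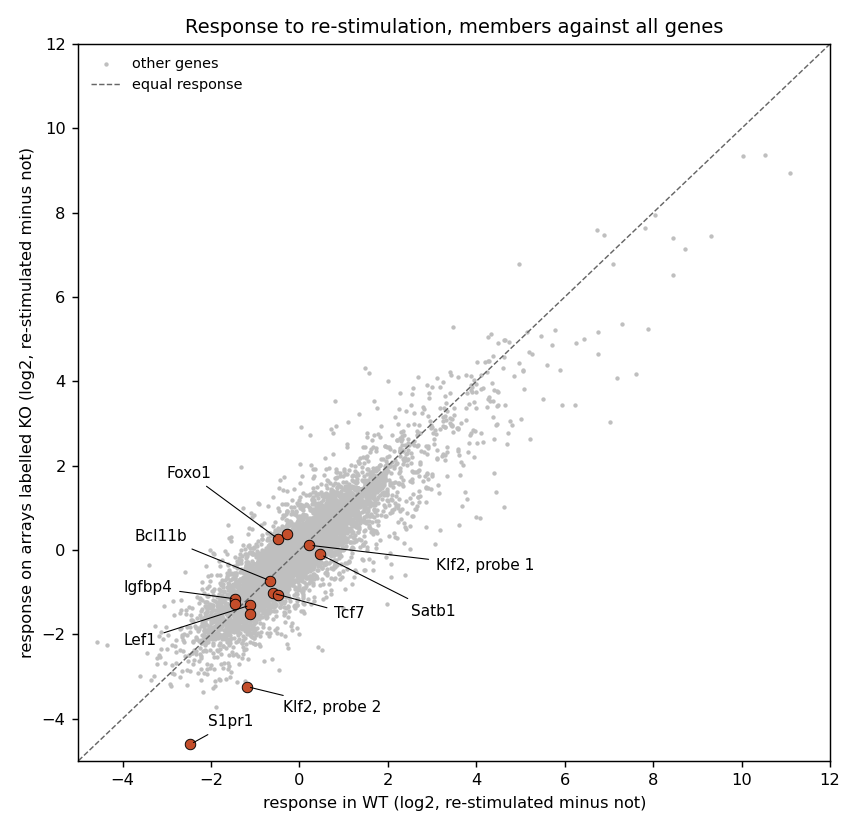
Response to re-stimulation on KO arrays (vertical axis, log2) against that on WT arrays (horizontal axis, log2), with member probes in red and other genes well above background on all 4 arrays in grey. The dashed line marks equal responses. S1pr1 (-2.47 and -4.61) and probe 2 of Klf2 (-1.19 and -3.24) lie below the line and apart from the other members, which stay within the cloud of genes.

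Other transcripts of naive, resting and central memory T cells, a list of 23 genes of which 22 could be measured, were then examined. Before re-stimulation 5 of them were at least 2-fold lower on the KO array and 1 was higher, with a median of -0.39, beside 2.83% and 5.27% of all genes. After re-stimulation 7 were lower and 1 higher, with a median of -0.57, beside 3.86% and 5.17% of all genes. Ccr7, the chemokine receptor for entry into lymph nodes, gave 7019 on WT and 1479 on KO before re-stimulation and 12309 and 3695 once re-stimulated. It was lower on KO in both states, with differences of -2.24 and -1.91, and rose with re-stimulation by 1.29 on WT and 1.62 on KO arrays. Il7r, the receptor chain for the survival cytokine IL-7 and like Ccr7 a known target of Foxo1, went the opposite way. It gave 494 on WT and 4165 on KO before re-stimulation, then 616 and 2559.9 with it and differences of 3.08 and 1.88, and its second probe gave 1.51 after re-stimulation and a bound of 2.85 before it, where it was not well above background on the WT array.

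Within this list, Klf3, a relative of Klf2, gave 816 on WT and 219.6 on KO before re-stimulation, against 476 and 68.6 afterwards. Rasgrp2, an exchange factor for the GTPase Rap1, gave 1024 and 416 before and 189 and 34.9 after re-stimulation, and Il6ra, the IL-6 receptor, gave 209.8 and 40.9 before. All 3 were lower on KO before re-stimulation, at -1.89, -1.29 and -2.35, and again after it, with -2.97 for Klf3, -2.61 for Rasgrp2 and a bound of -1.96 for Il6ra. The second probe of Il6ra, well above background on all 4 arrays, gave 51.6 on WT and 25.0 on KO after re-stimulation, a difference of -1.22 that falls short of that bound, so the size is unsettled. Actn1 (-1.06) completed the genes lowered before re-stimulation and was at 0.07 after it. Pik3ip1, an inhibitor of PI3K, passed the rule only after re-stimulation, from -0.55 to -2.01. Tsc22d3 (-0.68 and -1.43) and Txnip (-0.41 and -1.27) did likewise. The second probe of Tsc22d3 gave -0.05 and -1.09 and that of Txnip gave -0.36 and -2.55.

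**Figure D4:**
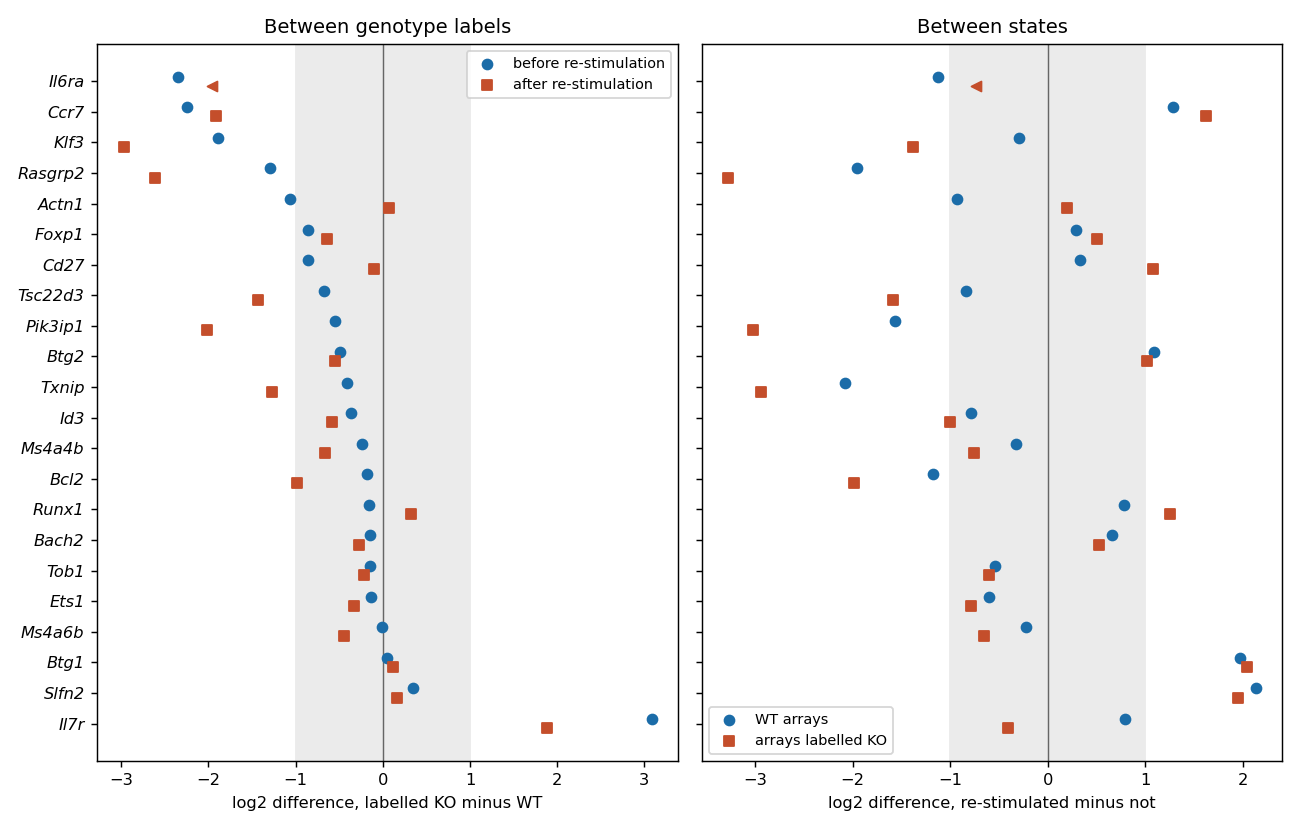
Log2 differences of the 22 measured genes of the wider list of naive and resting T cell transcripts, ordered by the difference before re-stimulation. The left panel shows KO minus WT before (circles) and after (squares) re-stimulation, the right panel the responses of WT (circles) and KO (squares). The grey band is less than 2-fold, and triangles are bounds. Il7r (3.08 and 1.88) lies right of the band, and Ccr7, Klf3 and Rasgrp2 lie to the left in both states.

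On re-stimulation genes of the wider list passed the rule in both directions. On WT arrays 5 of 22 were at least 2-fold lower and 4 higher, beside 13.7% and 13.3% of all genes. On KO arrays 7 were lower and 6 higher, beside 13.1% and 12.5%. The median response was -0.31 on WT and -0.62 on KO arrays, beside -0.018 and 0.0024 over all genes. On each pair of arrays 13 of 22 were below 0. On WT and KO arrays Pik3ip1 gave -1.56 and -3.02 and Rasgrp2 gave -1.96 and -3.28, whereas Btg1 and Slfn2, a pair of genes that restrain proliferation, rose by 1.97 and 2.05 and by 2.14 and 1.95. The brighter probe of Txnip fell by 2.08 and 2.94, but its second probe gave 1.00 on WT and -1.19 on KO arrays, so its direction on WT arrays is unsettled.

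The PI3K, Akt and Foxo pathway around Foxo1 was taken as 11 genes, of which 9 could be measured, Ccr7 and Il7r among them. Before re-stimulation 1 was at least 2-fold lower on KO (Ccr7) and 1 higher (Il7r). After it 1 was lower and 3 higher, the 2 added being Sgk1 and Inpp5d. Over all genes 2.83% were lower and 5.27% higher before re-stimulation, and 3.86% and 5.17% after it. Sgk1, a kinase that phosphorylates Foxo factors, gave 418 on WT and 1165 on KO after re-stimulation, and Inpp5d, the phosphatase SHIP1, gave 706 and 1622. Their differences were 0.77 and 1.31 for Sgk1 and 0.70 and 1.03 for Inpp5d. Both fell with re-stimulation, at -1.75 on WT and -1.21 on KO arrays for Sgk1 and -1.68 and -1.35 for Inpp5d. Of the 9 genes, 3 were at least 2-fold lower with re-stimulation on WT and 4 on KO arrays, and 1 was higher on each. Over all genes 13.7% and 13.1% were lower, and 13.3% and 12.5% higher. Foxo3 and Foxo4 gave no signal well above background.

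Around S1pr1, 9 of 10 genes of the sphingosine 1-phosphate system could be measured. Before re-stimulation 0 of them differed by 2-fold in either direction, where 2.83% of all genes were lower and 5.27% higher. After it 1 was lower and 0 higher, beside 3.86% and 5.17% of all genes. The lower one was S1pr4, another receptor of the family, at 2178 on WT and 2087 on KO before re-stimulation and 780.4 and 363 once re-stimulated, differences of -0.06 and -1.28. With re-stimulation its difference was -2.22 on KO arrays, and on WT arrays it was close to the 2-fold rule. Cd69, whose protein pulls the S1pr1 receptor off the cell surface, rose from 1326 to 3566 on WT and from 1118 to 2902 on KO arrays, differences of 1.91 and 1.68. Sphk1, a kinase that makes sphingosine 1-phosphate, rose the most of the list, from 12.2, not well above background, to 9700.0 on WT arrays and from 24.3 to 12185 on KO arrays.

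Of 11 partners and Wnt pathway genes of Tcf7 and Lef1, 10 could be measured, 0 were lower between genotype labels and 1 was higher in each state, Tle2 before (1.25) and Tle1 after (1.03) re-stimulation. Both encode corepressors that bind TCF1 and LEF1. Tle2 was dim, at 29.2 on WT and 68.9 on KO before re-stimulation. After it Tle2 was not well above background on WT, and only a bound of 0.53 can be given. The second probe of Gsk3b, of the same list, gave -1.22 after re-stimulation, where its brightest gave 0.51. Ctnnb1, which encodes β-catenin, gave -0.20 in both states. The 8 measured KLF relatives of Klf2 had 2 lower before re-stimulation, Klf3 and Klf9 (-1.27), and 1 lower and 1 higher after it, Klf3 and Klf10 (1.18). Of the relatives of Satb1 and Bcl11b and the subunits of the NuRD complex, 8 genes, between 5 and 6 could be measured and 0 differed by 2-fold in any comparison by their brightest probe. A dimmer probe of Rbbp4, well above background on all 4 arrays, gave -1.05 and -1.21 between labels and -1.13 and -1.29 as responses. Over all genes 2.83% were lower and 5.27% higher on KO before re-stimulation, and 3.86% and 5.17% after it. For the responses 13.7% (WT) and 13.1% (KO) were lower, and 13.3% and 12.5% higher.

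Around Igfbp4, few genes of the insulin-like growth factor system were expressed. Of 11 genes, 3 could be measured before and 4 after re-stimulation. Among these, 2 were at least 2-fold lower on KO in both states, as were 1.04% of 11502 genes. Igf1r, the receptor, gave 186 on WT and 56.1 on KO before re-stimulation, then 329 and 79.9 with it. Igfbp7, a related binding protein, gave 423 and 139 before and 1428 and 178 after re-stimulation. Their differences were -1.73 and -2.22 for Igf1r and -1.60 and -3.18 for Igfbp7, and both rose with re-stimulation on WT arrays, by 1.30 and 2.24, where Igfbp4 fell.

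A list of 15 effector T cell genes is given as a counterpart. Between genotype labels 9 were at least 2-fold higher on KO before re-stimulation and 8 after it, beside 5.27% and 5.17% of all genes. In either state 0 were lower, beside 2.83% and 3.86% of all genes, and the medians were 1.31 and 1.26. Il4, the Th2 cytokine, gave 752 on WT and 5239 on KO before re-stimulation, against 10876 and 148258 afterwards. Klrg1, a receptor of differentiated effector cells, gave 17.0 on WT and 198 on KO before re-stimulation and 19.0 and 234 once re-stimulated. Not all of the 15 went this way, as 1 had a difference below 0 before re-stimulation and 5 after it. Tbx21 gave -0.18 and -0.27, and Irf4 gave 0.73 and -0.35. Of 8 cell cycle genes 0 differed by 2-fold before re-stimulation and 1 was lower after it, Ccna2 (-1.04), with medians of -0.29 and -0.50. With re-stimulation 3 of these 8 were at least 2-fold lower on WT arrays and 3 on KO arrays, and 0 were higher. Over all genes 13.7% and 13.1% were lower, and 13.3% and 12.5% higher. The medians of these responses were -0.84 and -0.92, so falls with re-stimulation were not particular to the members.

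Last, genes with a pattern like that of the 3 members of widest range were sought among 10809 other genes well above background on all 4 arrays, by the Euclidean distance between log2 values centred on each gene's mean over 4 arrays. Nearest to S1pr1 were Gm11346 at 0.76 and Rasgrp2 at 1.01, where the median distance of all genes was 4.16. Nearest to Igfbp4 were Syk, a tyrosine kinase, at 0.47 and Tmem141 at 0.48, with a median of 2.93. Syk gave 643 on WT and 146 on KO before re-stimulation, then 207 and 52.9 with it. Nearest to Tcf7 were Serpini1 at 0.21 and Itga4, an integrin chain, at 0.25, with a median of 2.05. Itga4 gave 220.3 and 93.5 before re-stimulation, against 119 and 34.8 afterwards. Dapl1 was not eligible, since its signal was not well above background on the KO arrays. With 4 arrays, such likeness describes the order and size of 4 values only.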

How the data were processed

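For each of the 4 arrays the authors deposited an intensity per spot from Agilent Feature Extraction 10.7.3.1, background-subtracted, with quality flags. The authors deposited log2 values of the same probes as well, each relative to its array's 75th percentile. Their scale was found by setting it against the scanner values (at least 41001 probes within 0.01), and their column medians lay between -4.09 and -3.77. The paper's text names no step of this processing.

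Here, between 107 and 120 flagged spots per array were left out, spots of one probe were averaged as log2 intensity, and the 75th percentile over 41173 probes was subtracted. All arrays were on 1 slide and in 1 scan. Transcript accessions named 27479 probes (66.7%) through RefSeq of GRCm38.p6. The array was designed on another build, so that gene positions and promoter windows are those of RefSeq and not of the probes. A gene was used in a comparison where at least 1 of the 2 arrays had its brightest probe well above background. The other value, if dim, was set to the lowest one well above background on that array (signals of 14.5 to 17.2), which gives a bound. With 1 array per condition no test was made, and precision is limited by the number of arrays.

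The members, lists and rules were chosen with earlier results of these data known, so that no list is independent evidence. Named genes are all members, some but not all of the largest rises and falls past 2-fold of each list, and pathway genes that a sentence needs. Ifng, Igf2, Klf4, Axin2, Pik3r1 and Top2a, for example, were among the largest in their lists but are not discussed. The 2 nearest genes of the 3 members of widest range are named too. Others complete a count, or were named after their values were seen. Some genes of the lists are not reported here and were left out of their counts. Lists of CD8 T cell, B cell, myeloid and NK cell markers were also read. Of 2, 5, 5 and 5 genes, at most 1, 2, 2 and 3 could be measured in a comparison between genotype labels, with 0, 0, 1 and 1 at least 2-fold higher on KO before re-stimulation and 1, 0, 1 and 0 after it, beside 5.27% and 5.17% of all genes. Their part in the results was not tested. Alternatives were other scalings (median, quantile, Cd3e, probes well above background on all arrays), normexp with an offset of 50, the log2 table, other probe and filter rules and a 3-fold rule. Scripts were tested on simulated data. Python 3.11.15, numpy 2.4.6, pandas 2.3.3, R 4.3.3 and limma 3.58.1 were used.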

Additional observations from a re-analysis of the deposited data

Results flagged for a closer look

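Foxo1 stood out because its differences had opposite signs in groups under the same contrast. By probe 1 the difference KO minus WT was -0.34 before and 0.40 after re-stimulation, a change of 0.75, and by probe 2 it was -0.25 and 0.39, a change of 0.65. Seen as responses to re-stimulation, the same 4 values gave -0.49 on WT and 0.26 on KO arrays for probe 1, which is again 0.75 apart, and -0.28 and 0.37 for probe 2, again 0.65 apart. With 1 array per condition the difference was not tested. The signs between genotype labels held under every alternative run, from -0.40 to -0.21 before re-stimulation and from 0.37 to 0.50 after it with the brighter probe or the rule for the gene. The signs of the responses did not hold under every scaling. On KO arrays probe 1 gave -0.0027 when arrays were scaled to their median, and on WT arrays probe 2 gave 0.021 when they were scaled to Cd3e.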

How the results depend on the processing

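With the median over the members as the measure, KO minus WT was -0.83 before re-stimulation and moved to -0.58 when both arrays had to be well above background (which leaves out Dapl1), to -0.69 when scaled to Cd3e and to -0.99 with the dimmest probe of each gene, a choice added after seeing the data. After re-stimulation it was -1.19, and the first and last of these gave -0.72 and -2.14, with -1.61 for the mean over probes. The WT response of -0.66 moved to -0.36 (Cd3e), -0.96 (median scaling), -0.87 (mean over probes) and -1.11 (dimmest probe), and the KO response of -0.88 to -0.62, -1.14, -1.17 and -1.30 in that order and to -0.73 with no filter, which lets Dapl1 in. Counts past 2-fold stayed within 1.5 times except for the responses. On WT arrays the 3-fold rule left 1 of 3 members and the dimmest probe gave 5, and on KO arrays the 3-fold rule left 1 of 4 and normexp and Cd3e scaling 2 each. The median of all genes itself moved in the responses, by 0.30 and 0.26 (Cd3e) and by -0.29 and -0.26 (median scaling), and the share of called genes that were higher, 49.3% on WT and 48.9% on KO arrays, became 71.5% and 67.7%, 29.1% and 30.8%, and, with no filter, 59.5% and 59.7%. Of 508 values of single members and probes under alternatives, 392 stayed within the spread between probes, 116 moved further, and 18 changed sign, all of them small values of Klf2, Foxo1 or Satb1 (Satb1 on KO arrays gave 0.15 and after re-stimulation 0.06 with Cd3e). The sign of Klf2 depended on the probe, since the mean over probes or the dimmest probe turns it negative, and for the brighter probe on the scaling, since its responses of 0.22 on WT and 0.11 on KO arrays became -0.073 and -0.15 with median scaling and -0.052 and -0.12 with normexp. No paired analysis was possible because each condition has 1 array, and leaving an array out leaves no comparison.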
